A study of Mus musculus with 4 samples.

Results

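Expression of 10 genes of the Wnt pathway was described in cultured mouse bone marrow cells treated with an agent labelled R or with its solvent. The genes were chosen by name as secreted Wnt antagonists (Sfrp1, Sfrp2, Sfrp4, Dkk2, Dkk3 and Wif1), genes induced by Wnt signalling that feed back on it or mediate it (Nkd1, Axin2 and Lef1) and the ligand Wnt5a. All 10 were found among the 54532 genes of the deposited table, through their Ensembl identifiers in GENCODE M21. The 2 R libraries came from cells treated in culture with R at 0.5 um, as the labels write the dose, and the 2 vehicle libraries from DMSO-treated cells. The cells of both groups are labelled MSCs (a name used for mesenchymal stromal or stem cells), came from CB6F1 mice by digestion of whole bone marrow, were grown in high-glucose DMEM with serum, and carry the term aGVHD in their sample titles. The labels give neither the identity of R nor the length of the treatment, the age of the mice or the number of animals. Nothing in them says whether replicates came from different animals or dishes, and the p-values therefore reflect the spread between these libraries alone, which may be technical.

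Wnt proteins are secreted ligands that bind Frizzled receptors, and with an LRP co-receptor they stabilise beta-catenin, which then acts with TCF and LEF factors on target genes. Secreted Frizzled-related proteins and WIF1 bind Wnt ligands outside the cell, Dickkopf proteins act on the LRP co-receptors, and AXIN2 and NKD1 are induced by the pathway and dampen it from inside the cell. In bone marrow stroma, Wnt signalling is known for promoting osteoblast formation and restraining adipocyte formation.

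The reads recovered from the FPKM values summed to 18085183 and 16534440 in the R libraries and 16913625 and 17113441 in the vehicle libraries. These sums leave out genes without whole reads in every library. Values are FPKM, reads scaled to gene length and library size. The library size in this scaling, itself recovered from the values, was larger than the sum of recovered reads in each library. At that size a gene with 2 kb of exons at 1 FPKM stood for 35.3 to 38.6 reads. R replicate 2 had the lowest FPKM sum, 287360, where the other 3 libraries had 333130 to 345709, and the log2 difference between R replicate 2 and R replicate 1 correlated with log2 gene length across genes (r = 0.41), which does not tell in which of them the trend lies. Stromal markers were present, 12 of 14 having a mean of 1 FPKM or more, although Lepr and Thy1, which mark subsets of marrow stroma, were below 1 FPKM in each library. Macrophage and monocyte markers were abundant, with a geometric mean of 145 and 128 FPKM in R and 217 and 205 FPKM in vehicle over the 17 tested markers. Of 7 neutrophil markers 4 and of 9 T, NK and B cell markers 5 were listed at 0 in every library. In such bulk RNA, fewer cells of a type and less RNA per cell cannot be told apart.

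The comparison of R with vehicle asked how the transcripts of these genes differ between treated cells and cells given the solvent. Sfrp4 fell in R and Nkd1 rose, while the most abundant antagonists, Sfrp1 and Dkk3, were not called. Of the 10 genes, 6 averaged 1 FPKM or more over the 4 libraries and were tested with limma on log2(FPKM + 1). All 6 were above 1 FPKM in every library, with a lowest value of 1.03 FPKM, and the other 4 were at or below 0.607 FPKM in every library. At a Benjamini-Hochberg adjusted p under 0.05 over all 12176 tested genes, 1 of the 6 was higher in R, where the share among all tested genes was 0.345%, and 1 was lower, where the share was 1.37%. The share called in either direction was 1.72%. The 10 genes were named with earlier results of these data known, so setting them beside these shares is no test of the list. In 4 of the 6 genes both R libraries lay on the same side of both vehicle libraries, 3 above and 1 below, which also held for 47.9% of all tested genes. The median log2 fold change of the 6 was 0.09, and that of all tested genes was 0.00. The number of calls over all genes moved with single libraries. Among all tested genes 42 were higher and 167 lower in R with all 4 libraries. Leaving out R replicate 1 gave 312 higher and 665 lower, and leaving out R replicate 2 gave 438 higher and 410 lower. Leaving out vehicle replicate 1 gave 96 higher and 193 lower, and leaving out vehicle replicate 2 gave 150 higher and 259 lower. On the TPM scale, where each library sums to the same total, 58 were higher and 124 lower, and with a correction for gene length 209 were higher and 346 lower.

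**Figure D1:**
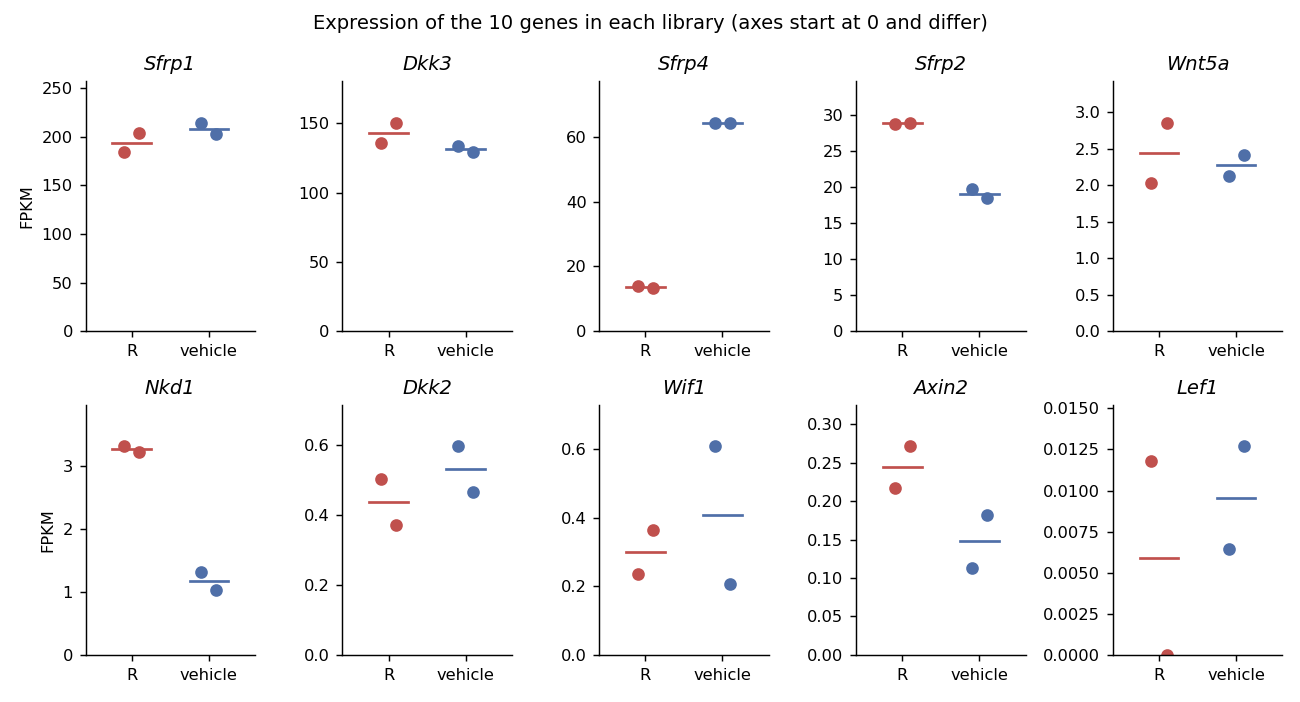
FPKM of each of the 10 genes in each library, R on the left and vehicle on the right of each panel, with points for libraries and a line for the mean of 2. Sfrp4 lies near 14 FPKM in R and near 64 FPKM in vehicle, Nkd1 and Sfrp2 are higher in both R libraries, and the points of Sfrp1, Wnt5a, Dkk2, Wif1 and Lef1 overlap between the groups.

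Among the secreted Frizzled-related proteins, which share a cysteine-rich domain with the Frizzled receptors, the 3 members moved differently. Sfrp4 (ENSMUSG00000021319, GRCm38 chromosome 13, 19623104 to 19632994, plus strand) was at 14.0 and 13.4 FPKM in R and at 64.3 and 64.2 FPKM in vehicle. Replicates lay within 1 FPKM of each other, and both R libraries were far below both vehicle libraries. R averaged 13.7 ± 0.478 FPKM and vehicle 64.3 ± 0.0911 FPKM (SD, n = 2 each), a 4.69-fold lower mean in R. The values stood for 1133 and 1011 reads in R and 4741 and 4813 reads in vehicle, so counting error was small beside the difference. On the log2(FPKM + 1) scale Sfrp4 fell by 2.15 (SE 0.117, 95% confidence interval -2.44 to -1.86; limma, Benjamini-Hochberg adjusted p = 0.00201). Of the 12176 tested genes, 23 had a lower log2 fold change. The call was kept without any single library and was lost without the filter on low values (limma, Benjamini-Hochberg adjusted p = 0.06), a setting under which limma called 0 of 24958 genes and 2767 had an unadjusted p under 0.05.

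Sfrp2, a relative of Sfrp1 that is also secreted by stromal cells, was at 28.7 and 28.9 FPKM in R and at 19.6 and 18.5 FPKM in vehicle. Both R libraries were above both vehicle libraries, and the mean was 1.51-fold higher in R. The log2 fold change was 0.57 (SE 0.117, 95% confidence interval 0.28 to 0.86), which missed the threshold in limma (Benjamini-Hochberg adjusted p = 0.0884). With R replicate 1 left out limma gave a Benjamini-Hochberg adjusted p of 0.0369, and with R replicate 2 left out 0.0397, both past the threshold. With vehicle replicate 1 left out the adjusted p of limma was 0.619, and with vehicle replicate 2 left out it was 0.688. A stretch of 347 exonic bases of Sfrp2, 16.1% of its exon length, overlaps the antisense gene Gm26771, which was at or below 0.21 FPKM in every library.

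Sfrp1, the most abundant of the 10 genes, was at 184 and 204 FPKM in R and at 214 and 202 FPKM in vehicle. One R library lay between the vehicle libraries, so the groups overlapped. The log2 fold change was -0.11, with a 95% confidence interval of -0.47 to 0.26 (limma, Benjamini-Hochberg adjusted p = 0.785), and it was 0.03 both on the TPM scale and after quantile normalization. Frzb, which encodes SFRP3, is a further member of this family and was at 3.63 and 4.06 FPKM in R and 2.68 and 2.44 FPKM in vehicle. Its log2 fold change of 0.44 was not called (limma, Benjamini-Hochberg adjusted p = 0.188). Sfrp5 had 0 and 0 reads in R and 1 and 1 reads in vehicle.

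Ratios within a library do not depend on how libraries were scaled to each other. Sfrp4 over Sfrp2 was 0.489 and 0.463 in R and 3.27 and 3.48 in vehicle, so the order of these relatives was opposite in the 2 groups. Sfrp1 over Sfrp4 was 13.1 and 15.2 in R and 3.33 and 3.15 in vehicle. With 2 libraries a group an exact permutation test of such a ratio cannot give a p below 0.333, so none was used.

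Of the Dickkopf genes, Dkk3 was abundant and Dkk2 was low. Dkk3, a divergent Dickkopf whose role in Wnt signalling is less settled than that of its relatives, was at 136 and 150 FPKM in R and at 134 and 129.6 FPKM in vehicle. Both R libraries were above both vehicle libraries, R replicate 1 by less than the distance between the vehicle replicates. The log2 fold change was 0.12, with a 95% confidence interval of -0.23 to 0.46 (limma, Benjamini-Hochberg adjusted p = 0.739). Dkk2, which binds the LRP co-receptors, had 36 and 25 reads in R and 39 and 31 reads in vehicle, or 0.503 and 0.373 FPKM against 0.597 and 0.466 FPKM. The exact Poisson 95% intervals of the summed reads, 46.7 to 78.4 in R and 54.6 to 88.4 in vehicle, overlapped over most of their range. These intervals cover counting error only. Wif1, which binds Wnt ligands through its WIF domain, had 11 and 16 reads in R and 26 and 9 reads in vehicle. The vehicle libraries lay outside the R libraries on both sides, so no direction can be read at this depth. Without the filter on low values the log2 fold changes of Dkk2 and Wif1 were -0.09 and -0.10 (limma, Benjamini-Hochberg adjusted p of 0.759 and 0.84).

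The summed level of the 6 secreted antagonists was 364 and 397 FPKM in R and 433 and 415 FPKM in vehicle. Sfrp1 and Dkk3 together made up 88.0 and 89.2% of it in R and 80.3 and 79.9% in vehicle. The share of Sfrp4 was 3.86 and 3.37% in R, against 14.8 and 15.5% in vehicle, a difference far larger than that between replicates. The share of Sfrp2 was 7.90 and 7.28% in R, against 4.53 and 4.44% in vehicle. Dkk2 and Wif1 together made up at most 0.278% in any library. The sum of the 3 Sfrp genes was 227 and 246 FPKM in R and 298 and 285 FPKM in vehicle, and it averaged 0.81 times the vehicle level in R. Unlike the shares, these sums depend on how libraries were scaled to each other. The FPKM total was 287360 in R replicate 2 and 333130 to 345709 in the other libraries. The sums were not compared on the TPM scale, so no separation of the groups is read from them.

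**Figure D2:**
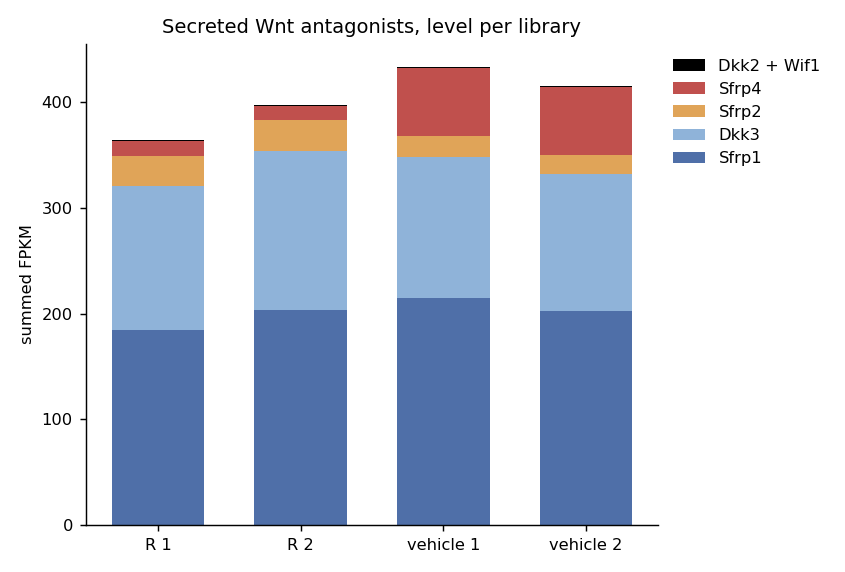
Summed FPKM of the 6 secreted antagonists in each library, as stacked bars from 0 with R libraries on the left. Sfrp1 and Dkk3 form most of every bar, and the Sfrp4 segment is 3.86 and 3.37% of the bar in R, against 14.8 and 15.5% in vehicle.

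Among the genes induced by Wnt signalling, Nkd1 rose, while Axin2 and Lef1 had few reads. Nkd1 (ENSMUSG00000031661, GRCm38 chromosome 8, 88521354 to 88594884, plus strand), whose protein binds Dishevelled, was at 3.32 and 3.23 FPKM in R and at 1.32 and 1.03 FPKM in vehicle. Both R libraries were above both vehicle libraries by more than the distance between replicates. R averaged 3.27 ± 0.0662 FPKM and vehicle 1.17 ± 0.206 FPKM (SD, n = 2 each), a 2.79-fold higher mean in R, from 292 and 266 reads in R and 106 and 84 reads in vehicle. The log2 fold change on the log2(FPKM + 1) scale, which understates it at this level, was 0.98 (SE 0.145, 95% confidence interval 0.62 to 1.34; limma, Benjamini-Hochberg adjusted p = 0.0409). This call was kept without any single library. It was lost in limma on the TPM scale, at a Benjamini-Hochberg adjusted p of 0.0528, and without the filter on low values, at an adjusted p of 0.196. Its paralogue Nkd2 was at 9.07 and 8.13 FPKM in R and 7.12 and 7.39 FPKM in vehicle and was not called (log2 fold change 0.22; limma, Benjamini-Hochberg adjusted p = 0.457). Nkd1 over Nkd2 within a library was 0.366 and 0.397 in R and 0.185 and 0.139 in vehicle.

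Axin2, a scaffold of the beta-catenin destruction complex and a widely used readout of Wnt signalling, had 23 and 27 reads in R and 11 and 18 reads in vehicle. These were 0.216 and 0.271 FPKM in R and 0.113 and 0.182 FPKM in vehicle, with both R libraries above both vehicle libraries. The summed reads were 50 in R (exact Poisson 95% interval 37.1 to 65.9) and 29 in vehicle (19.4 to 41.6), and the mean FPKM was 1.65-fold higher in R. The counting intervals overlapped, which is no test of the difference. Without the filter on low values the log2 fold change of Axin2 was 0.12 (SE 0.0592; limma, Benjamini-Hochberg adjusted p = 0.595). The pseudocount flattens differences at this level. Axin1, the constitutive paralogue, was at 19.5 and 19.2 FPKM in R and 17.3 and 17.6 FPKM in vehicle and was not called (limma, Benjamini-Hochberg adjusted p = 0.606). Lef1, a nuclear partner of beta-catenin, had 2 and 0 reads in R and 1 and 2 reads in vehicle, and the 0 in R replicate 2, taken to allow up to 3 reads, allows up to 0.0189 FPKM. The other TCF genes were present, with Tcf7l1 at 7.41 and 7.23 FPKM in R and 6.26 and 5.81 FPKM in vehicle and none of the 3 called.

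RefSeq promoter windows, from 250 bases before to 50 after a start site, were matched for 6 of the 10 genes, Sfrp2, Dkk2, Wif1, Nkd1, Axin2 and Lef1. The windows of the genes that lay higher in both R libraries are given because Nkd1 was called, Sfrp2 had the next highest log2 fold change among the 6 tested genes and Axin2 is a standard target. The window of Dkk2, a gene that was not tested, is given as an example with a motif match. They read 5' to 3' on the gene's strand, in build GRCm38.p6, at chr8:88527383-88527682 (Nkd1), chr3:83766071-83766370 (Sfrp2), chr11:108920099-108920398 (Axin2) and chr3:132085042-132085341 (Dkk2), each on the plus strand, and capitals mark a match to the TCF/LEF core letters CTTTGA or CTTTGT on either strand.
Nkd1: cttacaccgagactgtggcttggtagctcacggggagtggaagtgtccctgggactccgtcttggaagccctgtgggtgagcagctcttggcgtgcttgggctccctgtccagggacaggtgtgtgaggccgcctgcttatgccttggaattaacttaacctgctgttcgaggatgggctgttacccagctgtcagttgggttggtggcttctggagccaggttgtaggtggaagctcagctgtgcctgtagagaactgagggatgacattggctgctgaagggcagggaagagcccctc
Sfrp2: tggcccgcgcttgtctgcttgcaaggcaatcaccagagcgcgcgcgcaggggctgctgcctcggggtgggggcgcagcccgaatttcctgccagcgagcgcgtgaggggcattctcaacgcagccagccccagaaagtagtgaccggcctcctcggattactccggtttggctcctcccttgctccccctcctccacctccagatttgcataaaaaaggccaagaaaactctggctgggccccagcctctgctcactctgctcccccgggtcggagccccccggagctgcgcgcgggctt
Axin2: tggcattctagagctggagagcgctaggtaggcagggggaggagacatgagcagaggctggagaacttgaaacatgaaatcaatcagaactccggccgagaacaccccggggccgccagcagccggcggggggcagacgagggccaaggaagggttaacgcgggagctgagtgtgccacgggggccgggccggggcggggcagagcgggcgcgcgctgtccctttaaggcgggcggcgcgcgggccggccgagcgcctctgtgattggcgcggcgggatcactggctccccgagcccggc
Dkk2: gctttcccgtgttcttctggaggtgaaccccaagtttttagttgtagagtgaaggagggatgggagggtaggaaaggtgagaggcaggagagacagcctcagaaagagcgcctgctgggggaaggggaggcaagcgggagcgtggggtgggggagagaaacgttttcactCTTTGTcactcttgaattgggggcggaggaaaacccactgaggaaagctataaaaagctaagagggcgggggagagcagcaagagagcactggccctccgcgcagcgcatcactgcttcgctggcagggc
The windows of Nkd1, Sfrp2 and Axin2 held neither motif, and that of Dkk2 held CTTTGT 80 bases before the start site. Of the windows not shown, that of Wif1 held none and 1 of the 4 windows of Lef1 held 3 matches. Of all 32851 promoter windows of this length, 31.2% held at least 1 match. The annotated Nkd1 gene also has a start upstream of this window, and a window without these letters says nothing of binding elsewhere.

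Wnt5a, a ligand best known for signalling that does not pass through beta-catenin, was at 2.03 and 2.85 FPKM in R and at 2.13 and 2.42 FPKM in vehicle. The R libraries lay outside the vehicle libraries on both sides. The log2 fold change was 0.06 (95% confidence interval -0.35 to 0.48; limma, Benjamini-Hochberg adjusted p = 0.895), and it was -0.11 without R replicate 2 and 0.24 without R replicate 1. Wnt5a has 7823 exonic bases, and longer genes tended to lie higher in R replicate 2 than in R replicate 1. Under a correction for gene length the log2 fold change was 0.05.

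**Figure D3:**
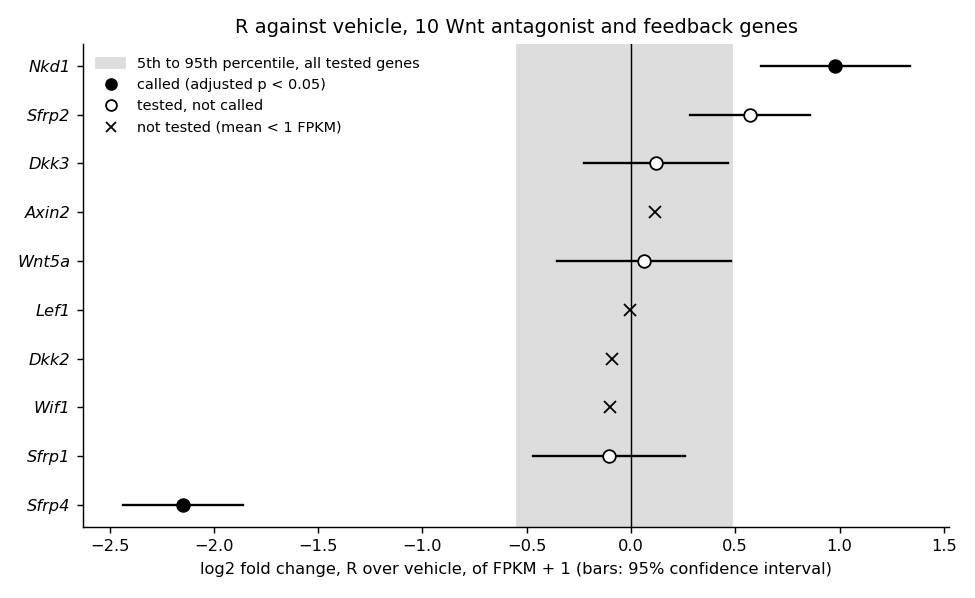
Log2 fold changes of FPKM + 1, R over vehicle, with 95% confidence intervals for the 6 tested genes and crosses for the 4 genes with a mean below 1 FPKM. Sfrp4 at -2.15 and Nkd1 at 0.98 lie outside the grey band from -0.55 to 0.48 that holds the 5th to 95th percentile of all tested genes, as does Sfrp2 at 0.57, which was not called.

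By level per length, the order of mean FPKM in R was Sfrp1, Dkk3, Sfrp2, Sfrp4, Nkd1, Wnt5a, Dkk2, Wif1, Axin2 and Lef1. In vehicle it was Sfrp1, Dkk3, Sfrp4, Sfrp2, Wnt5a, Nkd1, Dkk2, Wif1, Axin2 and Lef1. The neighbours whose libraries overlapped were Wif1 and Axin2 in R and Dkk2 and Wif1 in vehicle. The order therefore differed between the groups at 2 places, Sfrp2 with Sfrp4 and Nkd1 with Wnt5a, and in each case the libraries of a group were all on the same side.

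Genes of the wider pathway were read from lists of its other genes, and among these the receptors had the highest median log2 fold change. Of 20 receptor genes 14 were tested, 12 had a log2 fold change above 0 and 1 rose, beside 0.345% of all tested genes. The median over the 14 was 0.45, beside 0.00 over all tested genes, and 13 of the 14 had means of at least 1 FPKM in both groups. The gene that rose was Fzd8, a Frizzled receptor, at 12.9 and 14.4 FPKM in R and at 6.59 and 7.31 FPKM in vehicle (log2 fold change 0.88, SE 0.127; limma, Benjamini-Hochberg adjusted p = 0.0372). Its call was lost in limma without vehicle replicate 1, at a Benjamini-Hochberg adjusted p of 0.14, on the TPM scale, at an adjusted p of 0.0627, and without the filter on low values, at an adjusted p of 0.159. Fzd1, another Frizzled receptor, was at 17.7 and 21.8 FPKM in R and 9.60 and 10.8 FPKM in vehicle and missed the threshold (log2 fold change 0.88; limma, Benjamini-Hochberg adjusted p = 0.0537). Some alternatives called it, such as limma voom on recovered reads (Benjamini-Hochberg adjusted p = 0.027), and others did not, such as the TPM scale (adjusted p = 0.0819) and without vehicle replicate 1 (adjusted p = 0.174). All 6 tested Frizzled genes, a subgroup looked at after its values were seen, had log2 fold changes above 0, from 0.35 to 0.88, and both R libraries above both vehicle libraries, as had 22.7% of all tested genes.

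Of 24 genes for ligands, R-spondins and ligand secretion, 7 were tested, 7 had log2 fold changes above 0 with a median of 0.20, and 0 were called by limma, with 2 at an unadjusted p under 0.05. Over all tested genes 1947 of 12176 had an unadjusted p under 0.05, and 50.01% had a log2 fold change above 0. Wnt10a, a Wnt ligand, was at 3.04 and 2.04 FPKM in R and 1.22 and 0.858 FPKM in vehicle (limma, Benjamini-Hochberg adjusted p = 0.133). Wnt11 was at 3.73 and 2.77 FPKM in R and 1.70 and 1.74 FPKM in vehicle (limma, Benjamini-Hochberg adjusted p = 0.137). Of 20 other antagonists 6 were tested, 5 of them with means of at least 1 FPKM in both groups. Znrf3 averaged 1.07 FPKM in R and 0.964 FPKM in vehicle, so it passed the filter through its R level. All 6 had log2 fold changes above 0, with a median of 0.24, 0 called and 2 at an unadjusted p under 0.05. These were Frzb and Igfbp4, an IGF-binding protein that can also act on Wnt receptors, which was at 539 and 440.2 FPKM in R and 335 and 317 FPKM in vehicle (limma, Benjamini-Hochberg adjusted p = 0.201).

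Of 23 cytoplasmic and nuclear genes 21 were tested, with 17 above 0, a median of 0.18, 0 called and 3 at an unadjusted p under 0.05. For this and the next lists, the number at such a p over all tested genes was 1947 of 12176. Dvl1, a Dishevelled protein downstream of Frizzled, was at 15.5 and 14.6 FPKM in R and 10.7 and 9.75 FPKM in vehicle, and Bcl9l, a coactivator of beta-catenin, was at 17.4 and 20.9 FPKM in R and 13.2 and 14.4 FPKM in vehicle. Neither passed the test (limma, Benjamini-Hochberg adjusted p of 0.119 and 0.209). Of 28 other Wnt target genes 18 were tested, with 15 above 0, a median of 0.21, 0 called and 6 at an unadjusted p under 0.05. In 16 of the 18 both group means were at least 1 FPKM, and Znrf3 and Bambi fell short of it in vehicle only. Tcf7, Znrf3 and Nkd2 were also counted in an earlier list, so the lists do not hold separate genes throughout. Id2, an inhibitor of helix-loop-helix factors that BMP signals also induce, went against the list at 23.3 and 23.2 FPKM in R and 41.0 and 37.2 FPKM in vehicle (log2 fold change -0.72; limma, Benjamini-Hochberg adjusted p = 0.0555). Ccn4, a matrix-associated Wnt target, was at 5.57 and 7.35 FPKM in R and 2.64 and 3.84 FPKM in vehicle (log2 fold change 0.82; limma, Benjamini-Hochberg adjusted p = 0.122). Of 12 planar cell polarity genes 8 were tested, with 7 above 0, a median of 0.19, 0 called and 1, Scrib, at an unadjusted p under 0.05. Scrib, a scaffold of cell polarity, was at 12.1 and 11.0 FPKM in R and 8.65 and 9.37 FPKM in vehicle, and Prickle2, a core polarity gene, at 1.75 and 2.51 FPKM in R and 1.29 and 1.49 FPKM in vehicle (limma, Benjamini-Hochberg adjusted p of 0.276 and 0.366). On the TPM scale the median of all tested genes was 0.13, and the median of the receptors was 0.60.

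**Figure D4:**
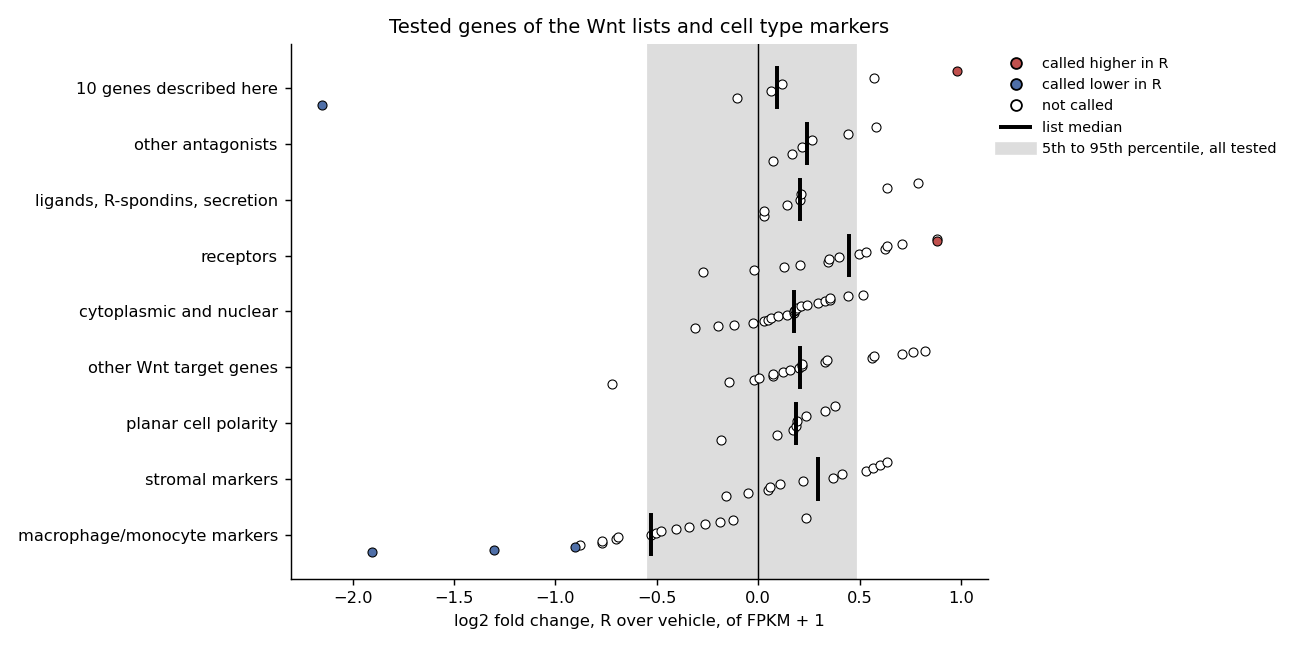
Log2 fold changes of FPKM + 1, R over vehicle, of each tested gene in the 10 genes described here, the other Wnt lists and 2 marker lists, with a bar for the list median and a grey band for the 5th to 95th percentile of all tested genes. The receptor median is 0.45, Fzd8 is the only called receptor, and macrophage markers lie mostly below 0 with a median of -0.53.

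Markers of cell types also differed between the groups. In the macrophage and monocyte list 3 of 17 tested genes fell, beside 1.37% of all tested genes, and 16 had negative log2 fold changes (median -0.53). The summed level of all 18 was 13819 and 10936 FPKM in R and 21206 and 18797 FPKM in vehicle. Most of this sum was Lyz2, at 8891 and 7061 FPKM in R and 14569 and 12540 FPKM in vehicle. Lyz2 itself was not called (limma, Benjamini-Hochberg adjusted p = 0.321). Of 12 tested stromal markers 10 were above 0 and 0 were called, with a median of 0.29 and 4 at an unadjusted p under 0.05. Over all tested genes 1947 of 12176 had such a p. The summed level of all 14 stromal markers was 2164 and 2239 FPKM in R and 1725 and 1721 FPKM in vehicle. Most of this difference lay in Col1a1, with means of 823 FPKM in R and 529 FPKM in vehicle, and Col1a2, with 424 and 287 FPKM. Cxcl12, with means of 488 FPKM in R and 505 FPKM in vehicle, and Pdgfra had log2 fold changes below 0. Relative to the geometric mean of the tested stromal markers in the same library, Sfrp4 was at 0.304 and 0.263 in R and 1.65 and 1.59 in vehicle, and Nkd1 at 0.0717 and 0.0634 in R and 0.0338 and 0.0254 in vehicle. Both differences kept their direction on this measure. Its divisor, the geometric mean, was itself 1.22 times as high in R. The markers in the divisor did not move alike, with Pdgfra at 0.90 and Pdgfrb at 1.53 times the vehicle mean in R. Sfrp2 on that measure was at 0.621 and 0.568 in R and 0.503 and 0.457 in vehicle, without overlap. Its mean was 1.24 times as high in R, beside 1.51 times in FPKM. Sfrp1 on that measure averaged 3.99 in R and 5.25 in vehicle, with both R libraries below both vehicle libraries. Dkk3 was at 2.94 and 2.95 in R and 3.42 and 3.21 in vehicle, opposite to its direction in FPKM. Wnt5a overlapped, at 0.0438 and 0.0561 in R and 0.0546 and 0.0598 in vehicle. None of these ratios was tested. Of 8 osteoblast markers 5 were tested, 0 were called by limma and 3 had an unadjusted p under 0.05, with a median of -0.56. Their summed level was 1079 and 956 FPKM in R and 1521 and 1455 FPKM in vehicle, most of it Spp1, the osteopontin gene that macrophages also express, at 1049 and 929.9 FPKM in R and 1488 and 1420.0 FPKM in vehicle. Sp7, a transcription factor of the osteoblast lineage, was at 4.498 and 4.25 FPKM in R and 3.74 and 3.54 FPKM in vehicle and was not called. Of the 5 tested, 2 had log2 fold changes above 0, Sp7 among them, and 3 below 0. Ibsp was at 1.18 and 2.49 FPKM in R and 6.20 and 8.89 FPKM in vehicle. Its log2 fold change of -1.61 was not called (limma, Benjamini-Hochberg adjusted p = 0.0532). Bglap2 was at 4.84 and 2.93 FPKM in R and 6.98 and 6.03 FPKM in vehicle, also not called. Of 7 osteoclast markers 4 were tested and 1 rose, beside 0.345% of all tested genes, with a median of 0.13. Summed over each list in each library, neutrophil markers were at most 2.197 FPKM, lymphoid markers at most 8.65 FPKM, endothelial markers at most 6.55 FPKM, erythroid markers at most 0.432 FPKM and adipocyte markers at most 13.6 FPKM. Which cells of the culture held these transcripts, and the part of the marker shifts in the results, was not tested.

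**Figure D5:**
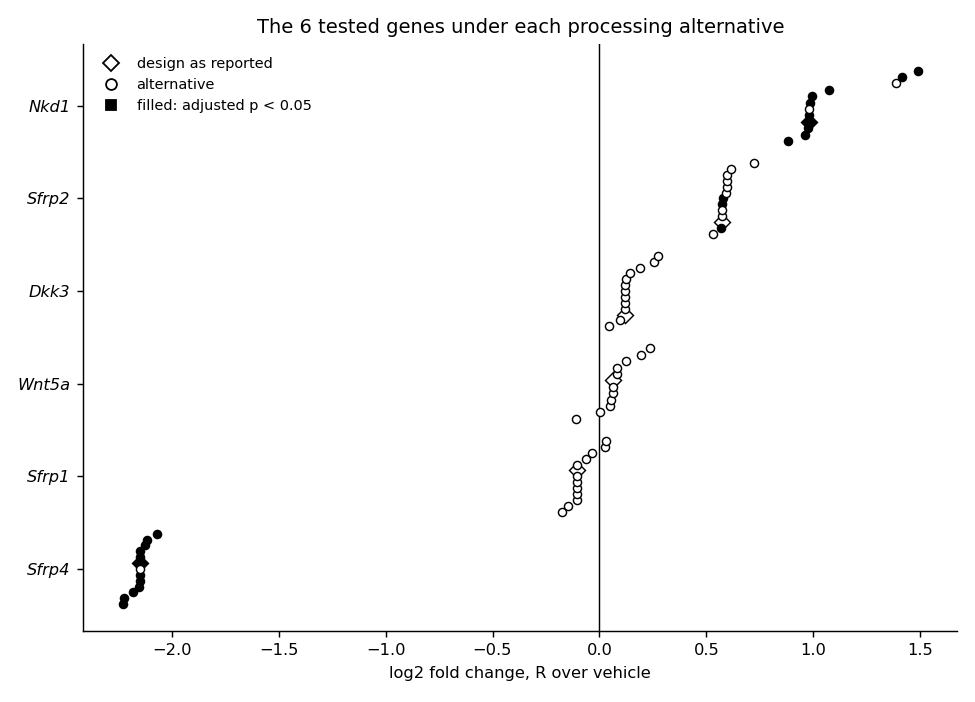
Log2 fold change, R over vehicle, of the 6 tested genes in the reported design (diamonds) and under each alternative (circles), filled where the adjusted p was under 0.05. Sfrp4 stays between -2.23 and -2.07 and Nkd1 between 0.88 and 1.49, while Sfrp1 and Wnt5a have values on both sides of 0.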

How the data were processed

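RNA sequencing of total RNA covered 2 R and 2 vehicle libraries, grouped and numbered by their sample titles. The authors deposited 1 FPKM value per gene and library, per the file headers, and 10 empty columns were not used. The builds GRCm38 and mm10 and edgeR 3.18.1 are named per the submitters' processing notes, without their roles. Not given in the sources used here are the aligner, counter, strand setting, annotation and filters. GENCODE M21 (GRCm38) held 54495 of the 54532 identifiers and gave symbols, 1-based coordinates and exon lengths.

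FPKM times exon length gave whole reads, within 0.02, for 96.3 to 96.4% of values above 0. Genes without whole values in every library have no reads here, among them Fzd8.

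R was compared with vehicle by limma 3.58.1 in R 4.3.3 on log2(FPKM + 1), with a variance trend, no further terms and Benjamini-Hochberg adjustment over the 12176 genes averaging 1 FPKM or more. Fold changes on this scale understate changes of low genes. The fit had 2 residual and 3.83 prior degrees of freedom. The steps were tested on simulated data.

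The 10 genes, the further lists and the markers were chosen with earlier results of these data known, so no list was tested. Named from each further Wnt list were the called genes and the 2 with the smallest p. Nkd2, Axin1, Sfrp5, Tcf7l1, Rspo2, Lepr, Thy1, Spp1, Sp7, Ibsp and Bglap2 were added after their values were seen. Alternatives were a pseudocount of 0.1, no filter, a filter at 5 FPKM, TPM, quantile normalization, limma voom on recovered reads, a length correction, a replicate block and leaving out each library.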

Additional observations from a re-analysis of the deposited data

How the results depend on the processing

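Of 208 values for single genes under the 12 alternatives, 168 kept their direction and side of the threshold, 6 lost a call, 31 gained one and 3 changed sign. Sfrp4 was called in 11 of 12 alternatives and Nkd1 in 9 of the 11 that could test it; the filter at 5 FPKM removed Nkd1 and Wnt5a, among others. The sign of Sfrp1 turned on the TPM scale (0.0281) and after quantile normalization (0.0302), and Wnt5a ranged from -0.11 to 0.24 when 1 library was left out; none of these values was called. The number of the 10 genes called higher was 1 as reported, 0 without the filter, 0 at 5 FPKM and 0 on the TPM scale, and 1 to 2 when 1 library was left out; the number called lower was 0 without the filter and 1 in every other alternative. Over all genes, 42 higher and 167 lower calls became 0 and 0 without the filter (2767 at an unadjusted p under 0.05 in limma), 209 and 346 with the length correction, 83 and 235 with voom, and 96 to 438 higher and 193 to 665 lower when 1 library was left out, where the lone sample is assumed to vary like the other group.

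The replicate numbers were not taken to pair the samples, since the labels do not say so. Deviations of equal-numbered libraries correlated at 0.35 across genes. A replicate block gave 891 higher and 1009 lower calls over all genes and 2 of the 10 genes higher, Sfrp2 being added (limma, Benjamini-Hochberg adjusted p = 0.00123). It called 8 of 14 receptors, of which 5 were Frizzled genes, Fzd1 among them. The cause of these changes was not tested. With at most 39 reads a library, depth limits what can be said of Dkk2, Wif1, Axin2 and Lef1.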

Other observations

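Several Wnt genes that are prominent in other tissues were listed at 0 in all 4 libraries. These were 8 of the 24 genes for ligands, R-spondins and secretion, among them Wnt1, Wnt3, Wnt3a and Wnt7a, and 4 of the 20 other antagonists, among them Dkk4 and Sost, which encodes the osteocyte antagonist sclerostin. Of the genes outside the 10 described here, Rspo2, which encodes an R-spondin that strengthens Wnt signalling at the receptor, was at 74.5 and 93.6 FPKM in R and 73.7 and 77.6 FPKM in vehicle, with overlapping groups and no call (limma, Benjamini-Hochberg adjusted p = 0.725). Its level was above that of Sfrp4 in every library.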
